A study of Mus musculus with 12 samples.

Results

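The collagen gene family is described here in inguinal white adipose tissue (iWAT), a fat depot under the skin of the groin, of mice with and without Nrep. Members were the rows of the deposited gene count table with a symbol made of Col, a number, the letter a and a number, as in Col1a1, and a protein-coding annotation in GENCODE M21. This rule found 44 genes among 33200 rows, and they are all 44 genes of that form in GENCODE M21. The members fall into 11 fibrillar collagens, 8 collagens of the basement membrane (the Col4 genes, Col15a1 and Col18a1) and 6 Col6 genes. The remaining members are 9 fibril-associated, 3 short-chain and 4 transmembrane collagens and 3 others (Col7a1, Col26a1 and Col28a1).

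The wild-type (WT) group held 3 libraries from C57BL/6 mice. The knockout (KO) group held 3 libraries from mice with a global knockout of Nrep made by CRISPR/Cas editing. Mice of both groups were 16 weeks old, lived under specific-pathogen-free conditions and ate a standard maintenance diet. Each library was described as a biological replicate, while the animals' sex and the number of founder lines are not stated. The series also holds 6 liver samples, not analysed here. The question put to the data is which collagen transcripts differ by genotype in this depot.

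Collagens are secreted proteins in which 3 chains wind into a triple helix, and the helix needs glycine, the smallest amino acid, in every turn of 3 residues. Fibrillar collagens assemble into the cross-linked fibres of the tissue, collagen IV forms the sheet-like network of basement membranes, and collagen VI forms beaded filaments around cells. In fat, each adipocyte is wrapped in a basement membrane and held in a fibre network that is produced largely by fibroblasts and adipocyte progenitors, with adipocytes and vessel cells adding to the basement membrane. Nrep, also called P311, encodes a small intracellular protein that has been studied in wound repair and fibrosis.

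The repeat that defines the family can be read from the coding sequences. The stretches below come from the GENCODE M21 transcript with the longest coding sequence of each gene, 72 bases each, from 5′ to 3′, with in-frame glycine codons (GGN, where N is any base) in capitals. They were chosen to show the unbroken fibrillar repeat, a broken collagen IV repeat and the short collagen VI repeat.
Col1a1 codons 168 to 191: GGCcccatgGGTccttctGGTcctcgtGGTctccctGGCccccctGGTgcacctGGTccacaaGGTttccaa
Col4a1 codons 154 to 177: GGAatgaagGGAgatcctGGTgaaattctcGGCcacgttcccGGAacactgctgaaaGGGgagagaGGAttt
Col6a1 codons 256 to 279: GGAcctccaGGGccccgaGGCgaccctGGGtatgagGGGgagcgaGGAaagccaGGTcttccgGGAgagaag

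In the Col1a1 stretch a glycine codon opens every triplet of codons, while in the Col4a1 stretch the spacing is broken 3 times. Over the whole coding sequence, the longest unbroken run of such triplets was 338 in Col1a1, 339 in Col1a2 and 344 in Col3a1. Among the other fibrillar members, Col24a1 and Col27a1 had shorter runs of 216 and 217 triplets. The longest run was 40 triplets in Col4a1, whose coding sequence held 23 runs of at least 3 triplets, and 66 in Col4a2. It was 87 in both Col6a1 and Col6a2 and 45 in Col6a3, and 30 in both Col15a1 and Col18a1.

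The libraries held 17970451 to 20369345 estimated counts. Levels are given as CPM, counts per library size after correction with edgeR's TMM factors, and a count of 1 corresponded to 0.0466 to 0.0574 CPM. Nrep, the targeted gene, had 1404, 1640 and 1300 counts in WT replicates 1 to 3 and 2, 2 and 5 counts in KO replicates 1 to 3, which matches the labels (log2 fold change of KO over WT -8.72, SE 0.268, edgeR adjusted p = 1.82e-05). With edgeR's quasi-likelihood method, 171 of 16656 tested genes had an adjusted p under 0.05; 144 had the higher level in KO and 27 in WT. Among the marker lists of other cell types, skeletal muscle held members past the edgeR test, and the adipocyte, macrophage, endothelial and Schwann cell lists held 0 each; DESeq2 called 9 of 10 adipocyte markers higher and 4 of 7 macrophage markers lower. The summed level of 10 adipocyte markers was 14671 to 18451 CPM in WT and 28668, 19563 and 34014 CPM in KO replicates 1, 2 and 3. The 7 macrophage markers summed to 2412 to 3583 CPM in WT and 1615 to 2023 CPM in KO. The 10 skeletal muscle markers summed to 9.80 to 15.9 CPM in WT and to 3924, 651 and 3612 CPM in KO. In bulk tissue, fewer cells of a type and less RNA per cell cannot be told apart.

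No collagen gene passed the test between genotypes, but most of the abundant ones had lower mean levels in KO. Of the 44 members, 34 had enough counts to be tested. Of these 34, 0 passed in edgeR, where 1.03% of all tested genes passed, and 0 passed in DESeq2, where 10.9% of all genes did, or in limma-voom (0.0961%). At an unadjusted p of 0.05, each of the 3 tools gave 6 members lower and 1 higher in KO. Over all tested genes, 9.79% were lower and 12.8% higher at that level in edgeR, and 9.02% and 14.1% in DESeq2. In limma-voom, 1807 of the 16656 tested genes were lower and 2059 higher. The log2 fold change was negative for 25 of 34 members, with a median of -0.34, beside 55.8% and a median of -0.06 over all tested genes. The collagen median was -0.17 without KO replicate 2 or without WT replicate 2, and -0.51 without KO replicate 3 or without WT replicate 3. The 3 KO libraries lay below the 3 WT libraries for 4 members (Col5a2, Col27a1, Col4a5 and Col26a1), where 13.1% of all tested genes did so. They lay above them for 1 member, Col28a1, where 15.2% of all tested genes did so. The labels call the libraries biological replicates, so p-values were taken to reflect the spread between 3 replicates per group.

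**Figure D1:**
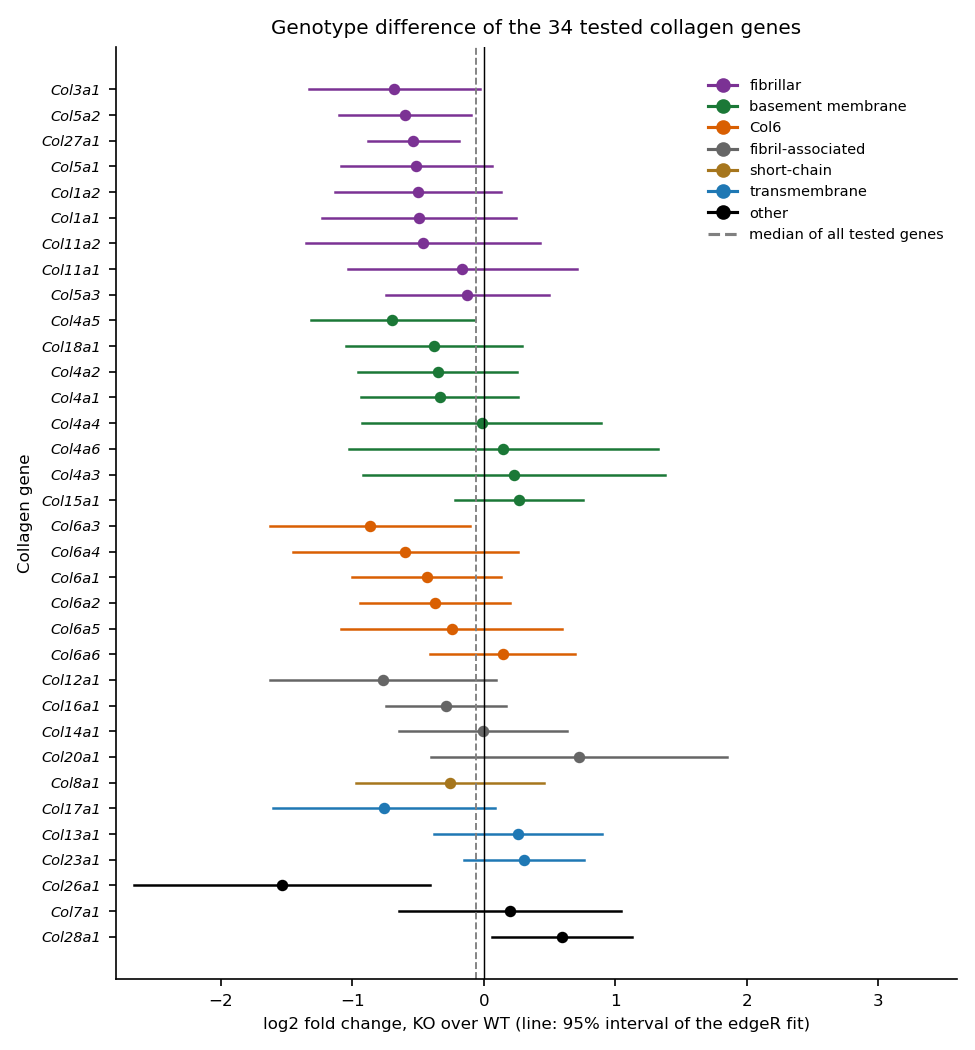
Log2 fold change of KO over WT (horizontal axis) for each of the 34 tested collagens, ordered by group, with 95% intervals from the edgeR fit and a dashed line at the median of all tested genes. Most points lie left of 0, among them all 9 tested fibrillar members, and no member passed an adjusted p of 0.05.

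The summed level of the family was lower in KO on average, and the genotypes overlapped. All collagens together summed to 12660.1, 14441 and 10025 CPM in WT replicates 1 to 3 and to 7990.0, 6432 and 11696 CPM in KO replicates 1 to 3. KO replicates 1 and 2 lay below every WT library, while KO replicate 3 lay within the WT range. The mean was 12376 ± 2222 CPM in WT and 8706 ± 2704 CPM in KO (SD, n = 3 each), a ratio of 0.703. As a share of all counts, before any scaling between libraries, collagens took 1.30% ± 0.238 in WT and 0.821% ± 0.214 in KO (SD, n = 3 each). The 13 members with a mean of at least 100 CPM held 97.5% of the collagen counts. Of these 13, 12 had a negative log2 fold change, the exception being Col15a1, and Col14a1 was close to 0.

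**Figure D2:**
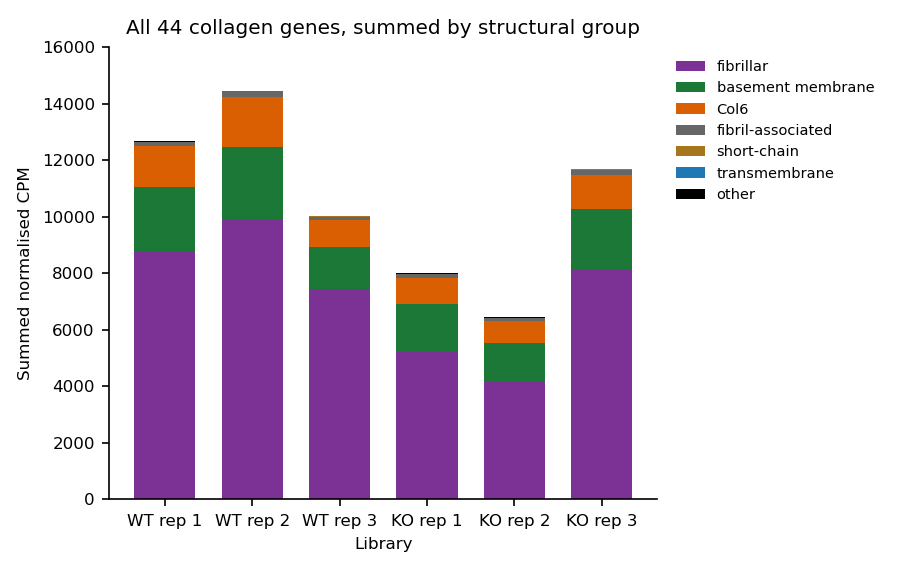
Summed CPM of the collagen groups in each of the 6 iWAT libraries (stacked bars, linear axis from 0). KO replicates 1 and 2 hold the lowest sums, 7990.0 and 6432 CPM, and the fibrillar collagens make up most of every bar.

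Per kilobase of transcript, Col3a1 was the most abundant collagen of the depot. Its mean over the 6 libraries was 636 CPM per kilobase, followed by Col1a2 at 317, Col1a1 at 217 and Col4a1 at 157 CPM per kilobase. These 4 stood in that order in 6 of 6 libraries. Col6a2 and Col6a1, both at 95.9 CPM per kilobase, could not be ordered, since Col6a2 was the higher of the pair in 4 of 6 libraries. Col4a2 followed at 85.1 CPM per kilobase and Col15a1 at 42.0. Col15a1, Col5a2, Col5a3 and Col6a3 lay between 35.1 and 42.0 CPM per kilobase, and neighbours in that order swapped places in 2 or 3 of 6 libraries. Collagen I protein usually pairs 2 α1 chains with a single α2 chain, whereas the Col1a2 transcript level per kilobase was the higher one in every library.

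Among the fibrillar collagens, Col3a1, Col1a2 and Col1a1 were the most abundant, and 9 of 9 tested members had a negative log2 fold change (median -0.50), none of them past the test. At an unadjusted p of 0.05, 3 of these 9 were lower and 0 higher, beside 9.79% and 12.8% of all tested genes. Col3a1 encodes the single chain of collagen III, a fibre of elastic and loose connective tissue. It had 4526, 4818 and 3725 CPM in WT replicates 1 to 3 and 2447, 1951 and 3763 CPM in KO replicates 1 to 3. KO replicates 1 and 2 were far below the WT libraries, and KO replicate 3 was slightly above WT replicate 3, so the groups overlapped. The level was 1.60-fold lower in KO with a 95% interval of 1.02 to 2.52 (log2 fold change -0.68, SE 0.282, edgeR's adjusted p = 0.204).

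Col1a1 and Col1a2, the chains of collagen I, followed the same library order in KO. Col1a2 had 1940.1, 2255 and 1764 CPM in WT and 1278, 986 and 1948 CPM in KO (log2 fold change -0.50, SE 0.272, edgeR's adjusted p = 0.307). Col1a1 had 1464, 1811 and 1232 CPM in WT and 873, 725 and 1608 CPM in KO (log2 fold change -0.49, SE 0.319, edgeR's adjusted p = 0.379). For both genes KO replicates 1 and 2 were below all WT libraries and KO replicate 3 was above at least 1 of them. The Col1a1 interval, -1.23 to 0.25 on the log2 scale, holds both no difference and a more than 2-fold lower level.

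The collagen V chains join collagen I fibrils and set their diameter. Col5a2 had 314, 369 and 275 CPM in WT and 201, 159.8 and 271 CPM in KO, without overlap, although KO replicate 3 and WT replicate 3 were nearly equal. It was 1.52-fold lower in KO (interval 1.07 to 2.15, edgeR adjusted p = 0.159). Col5a1 was at 262 ± 39.1 CPM in WT and 183 ± 61.7 CPM in KO (log2 fold change -0.51, adjusted p = 0.260). Col5a3 was at 251 ± 70.0 and 229.9 ± 62.2 CPM (SD, n = 3 each; log2 fold change -0.12, edgeR's adjusted p = 0.795).

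Col27a1, a minor fibrillar collagen best known from cartilage, had the smallest adjusted p of the family. It had 16.2, 16.5 and 12.9 CPM in WT and 10.6, 10.4 and 10.4 CPM in KO. The groups did not overlap, and the KO values were close together (15.2 ± 1.98 and 10.5 ± 0.126 CPM, SD, n = 3 each). The log2 fold change was -0.54 (SE 0.1502, edgeR adjusted p = 0.0960), which passes a threshold of 0.10 but not 0.05. Col11a1 and Col11a2, chains of the cartilage collagen XI, were at 2.29 to 3.59 CPM in the group means and overlapped. Col2a1, the main cartilage collagen, and Col24a1 had too few counts to be tested, with 15 and 43 counts over the 6 libraries.

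**Figure D3:**
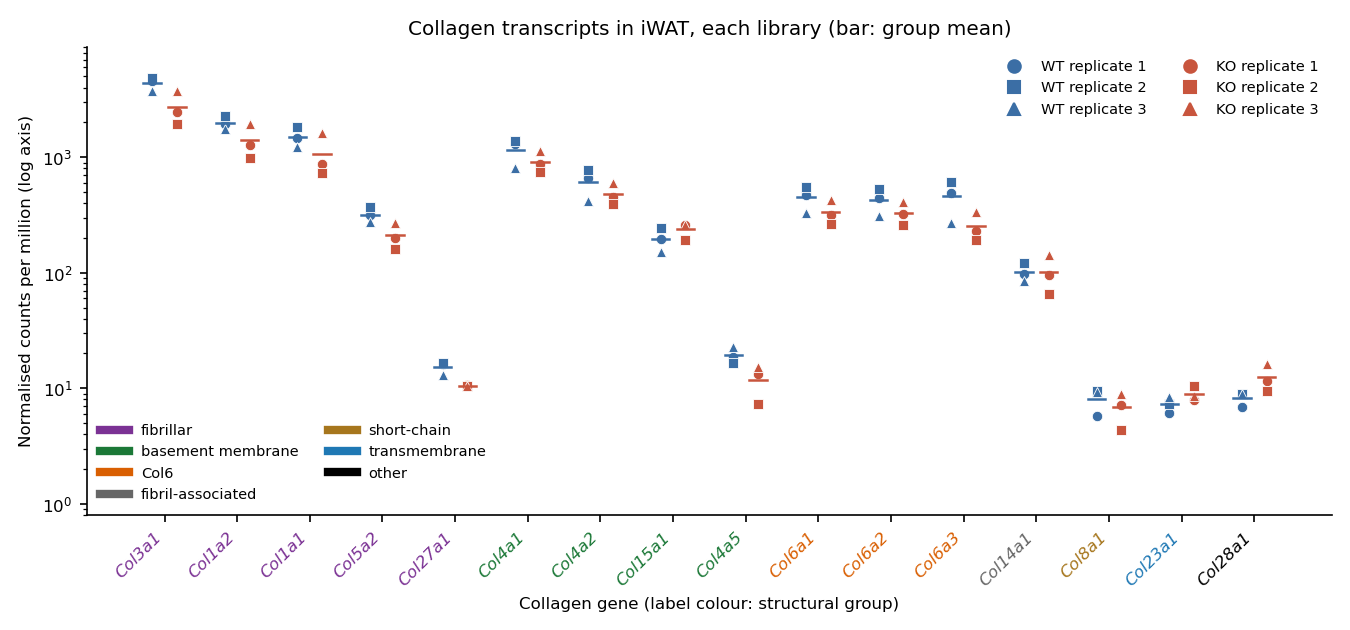
Normalised CPM (log axis) of 16 collagens in each library, WT in blue and KO in red, with a marker shape for each replicate number and a bar for the group mean. For Col3a1, Col1a2 and Col1a1 the triangle of KO replicate 3 lies among the WT points, while Col27a1 and Col4a5 show separate groups.

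The 250 bases upstream of the annotated starts of Col3a1 and Col1a2 are printed because these 2 genes were the most abundant members and had their high and low libraries in common. They are RefSeq sequences of build GRCm38.p6, both on the plus strand, at chr1:45311288-45311537 for Col3a1 and chr6:4505368-4505617 for Col1a2. Capitals mark matches to 3 motifs, searched on both strands. These are CCAAT, the core of sites for the factor NF-Y, then TATAAA, a form recognised by the TATA-binding protein, and finally GGGCGG, the core of sites for the factor Sp1. The motifs do not overlap each other in these windows.
Col3a1: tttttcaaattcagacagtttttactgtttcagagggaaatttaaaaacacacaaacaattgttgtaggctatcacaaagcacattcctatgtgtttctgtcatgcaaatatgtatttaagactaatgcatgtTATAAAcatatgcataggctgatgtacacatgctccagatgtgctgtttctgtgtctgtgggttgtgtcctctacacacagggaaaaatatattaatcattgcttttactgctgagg
Col1a2: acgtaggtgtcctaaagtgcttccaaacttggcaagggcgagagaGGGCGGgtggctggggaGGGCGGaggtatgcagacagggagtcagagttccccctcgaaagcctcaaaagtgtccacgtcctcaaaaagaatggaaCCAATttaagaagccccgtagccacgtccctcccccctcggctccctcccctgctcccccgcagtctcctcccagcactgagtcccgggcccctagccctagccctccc

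The Col3a1 window held TATAAA 117 bases upstream of the start and neither of the other motifs. The Col1a2 window held GGGCGG at 205 and 188 bases upstream and CCAAT at 109 bases upstream. Windows of 250 bases were found in RefSeq for 35 of the 44 members, 38 windows in all. CCAAT occurred in 13 of these 38 (34.2%), beside 33.8% of 32851 windows of all genes, and TATAAA in 5 (13.2%), beside 12.4%. GGGCGG occurred in 22 (57.9%), beside 32.7% of all windows. These are matches of letters and say nothing of binding in this tissue.

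Among the basement membrane collagens, 0 of 8 members passed the test, and the genotypes overlapped for 7 of 8. Their median log2 fold change was -0.18, and 5 of 8 were negative; the median was -0.37 without KO replicate 3. Col4a1 and Col4a2 are the chains of the collagen IV network found in nearly all basement membranes. Col4a1 had 1289, 1378 and 807 CPM in WT and 881, 744 and 1126 CPM in KO (log2 fold change -0.34, SE 0.257, edgeR's adjusted p = 0.449). Col4a2 had 655, 771 and 422 CPM in WT and 449.6, 395 and 603 CPM in KO (log2 fold change -0.35, edgeR's adjusted p = 0.436). For both genes WT replicate 3 lay inside the KO range.

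The ratio of Col4a1 to Col4a2 varied little between libraries. The CPM of Col4a1 divided by that of Col4a2, with no correction for length, was 1.97, 1.79 and 1.91 in WT and 1.96, 1.88 and 1.87 in KO. The highest ratio exceeded the lowest 1.10-fold, while the Col4a1 level itself spanned a 1.853-fold range. The genes lie head to head on chromosome 8 in GRCm38.p6. Col4a1 starts at base 11312826 on the minus strand and Col4a2 at base 11312805 on the plus strand, so the first 22 bases of the annotated transcripts overlap. Whether reads in this overlap were assigned by strand is not stated. The ratio of Col1a1 to Col1a2, genes on chromosomes 11 and 6, ranged 1.21-fold from 0.684 to 0.825. Col5a2 over Col5a1 ranged from 1.08 to 1.25. Col6a1 over Col6a2 was as tight as the collagen IV pair, ranging 1.09-fold from 0.985 to 1.08, so a narrow ratio was not particular to Col4a1 and Col4a2. Within that narrow range the Col6a1 over Col6a2 ratios did not overlap, at 1.071, 1.034 and 1.079 in WT and 0.985, 1.012 and 1.032 in KO. The Col4a1 over Col4a2 ratios overlapped, and none of these ratios was tested.

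Col15a1, which encodes a proteoglycan core protein that links basement membranes to nearby fibres, was the only abundant member with a positive log2 fold change. It had 197, 242 and 152 CPM in WT and 260.1, 191 and 260.3 CPM in KO. The groups overlapped, with KO replicate 2 below WT replicates 1 and 2. The log2 fold change was 0.27 with a 95% interval of -0.22 to 0.75 (SE 0.209, edgeR adjusted p = 0.459). Within each library, Col15a1 took 1.51% to 1.68% of the collagen counts in WT and 3.26%, 2.97% and 2.23% in KO replicates 1, 2 and 3, without overlap. This was not particular to Col15a1. The share of Col5a3 was 1.78% to 2.20% in WT and 2.43% to 3.05% in KO. That of Col14a1 was 0.775% to 0.853% in WT and 1.02% to 1.21% in KO. The CPM of Col15a1 divided by that of Col4a1 was 0.152, 0.176 and 0.188 in WT and 0.295, 0.257 and 0.231 in KO. Shares and ratios within a library do not depend on the scaling between libraries. This ratio was chosen after its values were seen and has no test. The 8 endothelial markers summed to 1001 to 1123 CPM in WT and 1286 to 1576 CPM in KO, and the adipocyte marker sum was also higher in each KO library than in any WT library; their part in the Col15a1 share was not tested.

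The other basement membrane chains were scarce. Col4a5, an X-linked chain, had 18.7, 16.6 and 22.5 CPM in WT and 13.2, 7.29 and 15.2 CPM in KO. All KO libraries lay below all WT libraries, at a log2 fold change of -0.70 (SE 0.268, edgeR adjusted p = 0.179). Col4a6, which starts 1342 bases away from Col4a5 on the opposite strand of the X chromosome, had 0.479 to 1.43 CPM. Col4a3 and Col4a4, partner chains with Col4a5 in the kidney filter, had group means of 2.27 to 6.05 CPM. In both, WT replicate 3 was the highest library, at 4.11 and 9.75 CPM. Col18a1, the source of endostatin, was at 109.7 ± 37.6 CPM in WT and 84.3 ± 23.6 CPM in KO (SD, n = 3 each; log2 fold change -0.38, edgeR's adjusted p = 0.446).

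Of the 6 Col6 genes, 0 passed the test and 5 had negative log2 fold changes, with a median of -0.40. Collagen VI needs the α1 and α2 chains and 1 longer chain, in most tissues α3. Col6a3 was the member with the largest negative value among the abundant collagens. It had 492, 612 and 271 CPM in WT and 231, 191 and 333 CPM in KO. WT replicate 3 was close to the KO libraries and below KO replicate 3, so the groups overlapped. The level was 1.82-fold lower in KO (interval 1.07 to 3.09), with an edgeR adjusted p = 0.176.

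Col6a1 and Col6a2, neighbours on chromosome 10, differed less. Col6a1 had 474, 550.2 and 331 CPM in WT and 317, 264 and 422 CPM in KO (log2 fold change -0.43, edgeR's adjusted p = 0.322). Col6a2 had 443, 532 and 307 CPM in WT and 321, 261 and 409 CPM in KO (log2 fold change -0.37, edgeR's adjusted p = 0.392). The CPM of Col6a3 divided by that of Col6a1 was 1.04, 1.11 and 0.818 in WT and 0.730, 0.723 and 0.788 in KO. All KO ratios lay below all WT ratios, with WT replicate 3 closest to KO, and no test was made of this ratio, which was chosen after its values were seen. Among the alternative long chains, Col6a4 was at 17.0 ± 5.87 CPM in WT and 11.2 ± 5.38 CPM in KO, Col6a5 at 13.0 ± 5.30 and 10.99 ± 4.22, and Col6a6 at 14.3 ± 3.87 and 15.8 ± 3.31 (SD, n = 3 each), all with overlapping groups. KO replicate 2 held 17.3 CPM of Col6a4 and 15.9 CPM of Col6a5, the highest KO value for both, although it was the lowest library for Col6a1, Col6a2 and Col6a3.

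**Figure D4:**
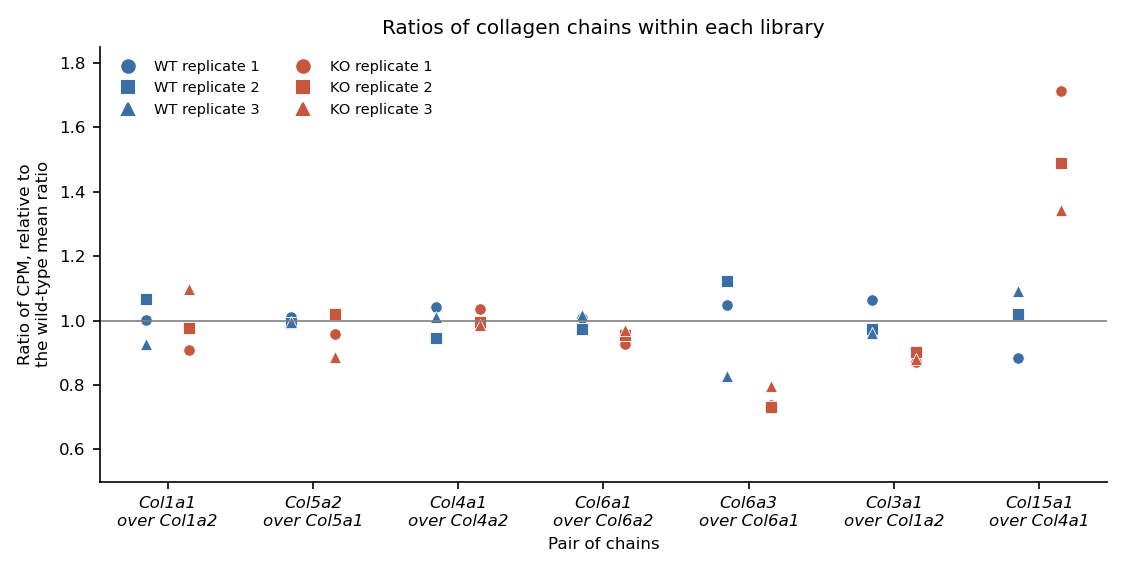
Within-library ratios of CPM between 7 pairs of collagen chains, each divided by the mean WT ratio of that pair (vertical axis), WT in blue and KO in red, with a marker shape per replicate number. Col4a1 over Col4a2 stays close to the line at 1, whereas the 3 KO points of Col15a1 over Col4a1 (0.231 to 0.295 before the division) lie above the 3 WT points (0.152 to 0.188).

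The remaining groups were sparse, and 0 of their members passed the test. Col14a1, a fibril-associated collagen, had 98.1, 121 and 85.5 CPM in WT and 96.0, 65.8 and 142 CPM in KO, with group means of 102 and 101 CPM. Its KO libraries spread on both sides of the WT ones. Col16a1 and Col12a1 had log2 fold changes of -0.29 and -0.77 (edgeR adjusted p = 0.402 and 0.260), and the WT values of Col12a1 ran from 12.0 to 38.3 CPM. Col20a1 was at 0.653 to 3.00 CPM and had the highest positive value of the family, 0.72 (SE 0.486, edgeR adjusted p = 0.394). Col8a1, a short-chain collagen of vessel walls, had 5.75, 9.38 and 9.32 CPM in WT and 7.11, 4.38 and 9.002 CPM in KO.

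Col28a1, a collagen expressed around peripheral nerve glia, was the member with all KO libraries above all WT libraries. It had 6.92, 8.86 and 8.84 CPM in WT and 11.6, 9.41 and 16.2 CPM in KO. The log2 fold change was 0.59 (SE 0.230, edgeR adjusted p = 0.182). Without KO replicate 2 its edgeR adjusted p was 0.0247, in a fit where 25.3% of all tested genes passed. The 6 Schwann cell markers summed to 379.9 to 432 CPM in WT and 463 to 538 CPM in KO, and their part in the Col28a1 value was not tested. Col26a1 lay at the other end, at 1.10 ± 0.508 CPM in WT and 0.373 ± 0.0795 CPM in KO (SD, n = 3 each; log2 fold change -1.53, edgeR's adjusted p = 0.123), on 88 counts in all. The transmembrane members Col23a1, Col13a1 and Col17a1 had log2 fold changes of 0.30, 0.26 and -0.76, with Col23a1 at 6.12, 7.28 and 8.36 CPM in WT and 7.86, 10.4 and 8.61 CPM in KO. Col7a1, the anchoring fibril collagen of skin, was at 0.778 to 1.49 CPM.

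A total of 10 members were not tested for want of counts. They were Col2a1, Col24a1, Col9a1, Col9a2, Col9a3, Col19a1, Col22a1, Col8a2, Col10a1 and Col25a1, with 4 to 54 counts over the 6 libraries and at most 0.918 CPM in any library. They include the collagens best known from cartilage (Col2a1, the Col9 genes and Col10a1). Counts this low cannot show a difference between the groups. The tendon markers, another collagen-rich tissue, were at or below 0.621 CPM in sum in every library.

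Single libraries stood out among the tested collagens. KO replicate 2 was the lowest of the 6 libraries for 17 of 34 tested members, where it was the lowest for 14.5% of all tested genes. WT replicate 2 was the highest for 20 of 34 members, beside 22.9% of all tested genes. Relative to the WT mean, the median fibrillar member lay at -0.64 in KO replicate 1, -0.998 in KO replicate 2 and -0.07 in KO replicate 3 on the log2 scale, and at -0.21 in WT replicate 3. KO replicates 1 and 2 each lay below all WT libraries for 7 of 9 fibrillar members, and KO replicate 3 for 3 of 9. Over all tested genes the same held for 39.7% in KO replicate 1, 27.9% in KO replicate 2 and 42.9% in KO replicate 3. The 3 of 9 in KO replicate 3 was near its background share. The median fibrillar log2 fold change was -0.25 without KO replicate 2 and -0.80 without KO replicate 3. KO replicate 3 held the highest adipocyte marker sum, KO replicate 2 the lowest fibroblast marker sum. The 10 fibroblast and progenitor markers summed to 2403, 2554 and 2562 CPM in WT and 2346, 1744 and 2704 CPM in KO. The fibrillar collagen sum divided by this marker sum was 3.65, 3.88 and 2.90 in WT and 2.23, 2.37 and 3.01 in KO. KO replicates 1 and 2 had the lowest ratios, and the groups overlapped. This marker list includes Dcn and Lum, which are matrix genes also listed as fibril organisers. Its members Dpp4 and Ly6a passed an edgeR adjusted p of 0.10, where 8.27% of all tested genes did. The basement membrane sum divided by the endothelial marker sum was 2.27, 2.32 and 1.33 in WT and 1.31, 1.10 and 1.35 in KO. The part of a changed cell makeup in these values was not tested.

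**Figure D5:**
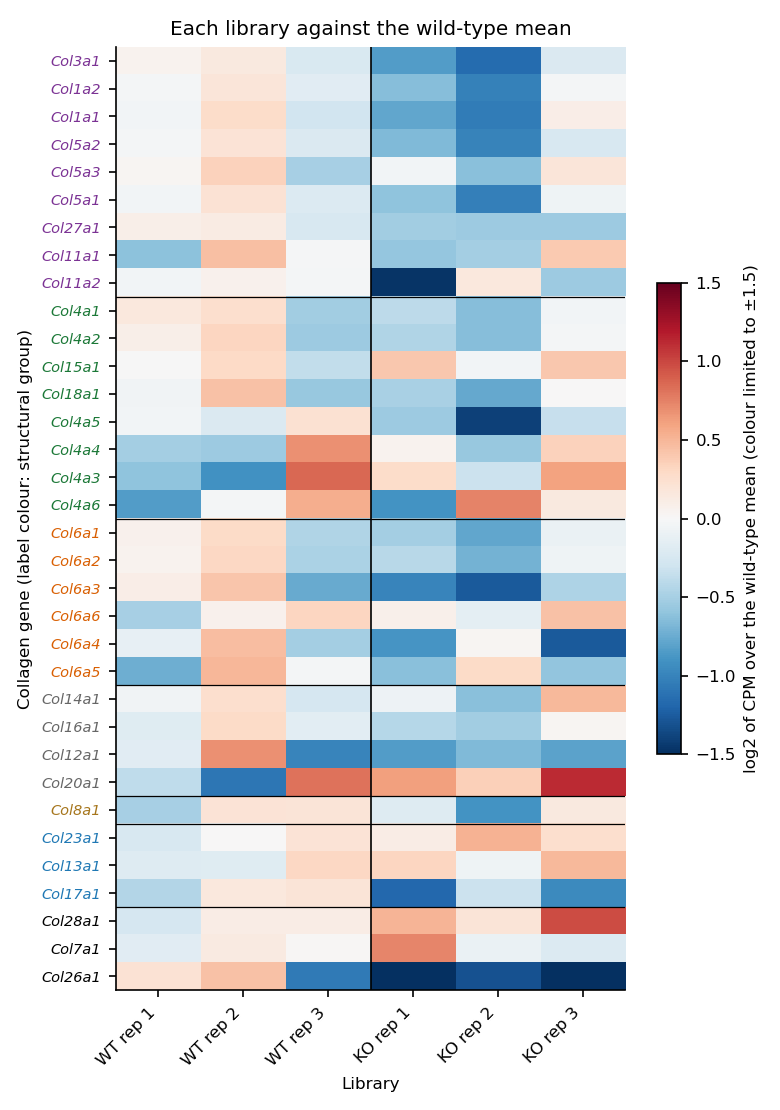
Log2 of each library's CPM over the WT mean (colour) for the tested collagens, one row per gene and one column per library. Colour is limited to 1.5 in either direction. The rows of Col3a1, Col1a2, Col1a1, Col5a1 and Col5a2 are darkest blue in KO replicate 2 and pale in KO replicate 3.

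Genes whose products modify, export, cross-link or degrade collagen were counted from the same fit. Of 87 listed partner genes, 83 were tested and 0 passed in edgeR, while 16 (19.3%) were lower and 4 (4.82%) higher at an unadjusted p of 0.05, beside 9.79% and 12.8% of all tested genes. DESeq2 called 8 lower and 1 higher, where it called 3.6% of all genes lower and 7.34% higher, and limma-voom called 0. The median log2 fold change was -0.20 for chain modification and folding (13 of 16 negative), -0.19 for export (8 of 10) and -0.23 for propeptide processing (7 of 7). It was -0.57 for cross-linking (5 of 6 negative) and -0.56 for breakdown (7 of 9). It was 0.00 for fibril organisers, 0.10 for basement membrane partners and 0.09 for receptors. Without KO replicate 2 the median of all partners moved from -0.10 to 0.09 and that of propeptide processing turned to 0.07. Without KO replicate 3 the medians of fibril organisers, basement membrane partners and receptors turned to -0.13, -0.09 and -0.06.

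In the folding list, Serpinh1 and P4hb had the order of the KO libraries seen for collagen I and III, with replicate 3 highest and replicate 2 lowest. Serpinh1, the collagen-specific chaperone HSP47, had 638, 707 and 335 CPM in WT and 322, 285 and 418 CPM in KO (log2 fold change -0.71, SE 0.292, edgeR's adjusted p = 0.200), with WT replicate 3 inside the KO range. P4hb, the β subunit of prolyl 4-hydroxylase, was at 472 ± 105 CPM in WT and 381 ± 40.3 CPM in KO (SD, n = 3 each; edgeR adjusted p = 0.371). Sec31a and Mia3, of the carriers that take procollagen out of the endoplasmic reticulum, had log2 fold changes of -0.19 and -0.08. Pcolce and Adamts2, which act on the procollagen ends, were at -0.08 and -0.23.

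At an adjusted p of 0.10, which 8.27% of all tested genes passed (2.75% lower and 5.52% higher), 7 of 83 partners were lower and 0 higher in KO. These 7 are named after their values were seen. They are P4ha1 (a catalytic subunit of prolyl 4-hydroxylase), Tmem39a and Creb3l1 (of the secretory pathway), the lysyl oxidase genes Loxl2 and Loxl3, the membrane protease gene Mmp14 and the protease inhibitor gene Timp1. Creb3l1, a transcription factor that activates collagen genes, had 29.0, 35.5 and 19.0 CPM in WT and 13.2, 12.3 and 15.7 CPM in KO (log2 fold change -1.02, SE 0.231, edgeR's adjusted p = 0.0670). Loxl2, which cross-links collagen IV and fibrillar collagens, had 128, 136 and 114 CPM in WT and 73.5, 59.2 and 100.2 CPM in KO (log2 fold change -0.70, edgeR's adjusted p = 0.0968). Pxdn, the peroxidase that forms the cross-link of collagen IV, had 176, 169 and 180.1 CPM in WT and 221, 181 and 282 CPM in KO (log2 fold change 0.38, edgeR's adjusted p = 0.246). The 2 cross-linking genes therefore lay on opposite sides, both without overlap between groups. Timp1 had 26.7, 43.1 and 3.20 CPM in WT and 1.72 to 2.36 CPM in KO, so that its value rested on WT replicates 1 and 2.

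The transcripts of proteins that bind collagen outside the cell showed no shared direction. Sparc, a collagen-binding protein, had 2948, 2883 and 2778 CPM in WT and 2213, 1696 and 3117 CPM in KO (log2 fold change -0.29, edgeR's adjusted p = 0.498). Dcn, or decorin, which coats fibrils, had a log2 fold change of 0.00. Nid1, which joins laminin to collagen IV, was at 578 ± 26.6 CPM in WT and 599 ± 209 CPM in KO, and Lamc1, a laminin chain, had a log2 fold change of -0.32. The receptor genes Itgb1 and Ddr2 were at -0.03 and -0.36. Timp3, from the breakdown list, encodes a protease inhibitor bound to the matrix. The gene had 378, 366 and 573 CPM in WT and 766, 551 and 907 CPM in KO (log2 fold change 0.76, SE 0.253, edgeR's adjusted p = 0.138, and 0.0264 in DESeq2).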

How the data were processed

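Libraries were made from poly(A) RNA with a stranded mRNA kit, per the labels' protocols. The deposited iWAT table holds estimated counts per gene and library, unscaled; 9.53% to 11.1% of values per library were not whole. The submitters' processing notes name fastp, featureCounts, GRCm38 and GRCm39 for the series, without saying which apply to iWAT, so how the estimated counts of iWAT were made is not known here. Estimated counts were rounded. GENCODE M21 symbols matched 26372 of 33200 rows (79.4%), and rows without a symbol stayed in the fit. No pair of libraries was identical.

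Genotypes were compared in edgeR 4.0.16 (R 4.3.3) by the quasi-likelihood F-test with TMM factors, filterByExpr, robust estimation and Benjamini-Hochberg adjustment over all 16656 tested genes, two-sided, threshold 0.05. The SE is the log2 fold change divided by the square root of F. Values per kilobase use the transcript with the longest coding sequence. Alternatives were DESeq2 1.42.0, limma-voom (limma 3.58.1), other scalings and filters, an adjusted p of 0.10, a replicate block, non-robust estimation and fits without 1 library. The code was tested on simulated data.

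Members and lists were chosen with earlier results of these data known. Values per library are given for members past the test, the 3 most abundant fibrillar, basement membrane and Col6 members, the most abundant member of each other group, and members of at least 2 CPM without overlap between groups. Partners past the test, or else the 2 most abundant per list, are named.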

Additional observations from a re-analysis of the deposited data

How the results depend on the processing

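Nrep passed in all 15 alternatives (log2 fold change -9.31 to -8.39). The count of collagens past the test was 0 in 13 of 15 alternatives. It was 1 at an adjusted p of 0.10 (Col27a1, lower, the 1 fibrillar gene called there) and 2 without KO replicate 2 (Col6a4 lower, the 1 Col6 gene, and Col28a1 higher). Over the fits leaving out 1 library it ranged from 0 to 2, and for Col6 from 0 to 1. Over all genes, 171 became 1823 in DESeq2, 16 in limma-voom, 1370 without a filter, 1378 at 0.10, 1225 with the replicate block, and 1 to 4221 without 1 library. Partner calls, 0 in edgeR, were 9 in DESeq2, 7 at 0.10, 8 without a filter, 4 with the replicate block, and 0 to 13 without 1 library. Same-numbered WT and KO libraries had correlations of -0.01, 0.20 and 0.11, so the numbers were not taken as pairs; the block gave 0 collagen calls.

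Of 16 named members, 12 kept their sign and side of the threshold in all 15 alternatives. Col14a1 turned positive in DESeq2 (0.0399), with RLE factors (0.0397), without a filter (0.00061), and without WT replicate 2 or KO replicate 1 or 2, in a range of -0.33 to 0.29 without 1 library; Col8a1 did so without KO replicate 2 (0.0401, range -0.51 to 0.0401). The Col6 median moved from -0.40 to -0.55 with library totals, and between -0.59 and -0.22 without 1 library. Library totals moved the median of all genes from -0.06 to -0.19 and that of the collagens from -0.34 to -0.49; without 1 library the collagen median ran from -0.51 to -0.17 and the basement membrane median from -0.37 to -0.13. The cause of these differences was not tested. Members under 1 CPM rest on too few counts to show a difference.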

Other observations

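Within-library shares of collagen counts, which need no scaling between libraries, separated some groups. The basement membrane collagens took 14.9% to 17.9% of the collagen counts in WT and 18.2% to 21.9% in KO, without overlap, and the fibril-associated members 1.16% to 1.36% in WT and 1.61% to 1.69% in KO. Among the basement membrane members, only the Col15a1 share separated the genotypes. The summed CPM of that group was lower in KO on average, with overlap (2109 ± 553 in WT, 1742 ± 362 in KO, SD, n = 3 each). Col14a1, the largest fibril-associated share, took 0.775% to 0.853% in WT and 1.02% to 1.21% in KO, while the Col16a1 and Col12a1 shares overlapped. The fibrillar share was 68.5% to 74.0% in WT and 64.2% to 69.6% in KO, with overlap, and the Col6 share 9.50% to 12.1% and 10.3% to 11.8%. These shares were examined after the levels were known and have no test. Col3a1 divided by Col1a2 was 2.33, 2.14 and 2.11 in WT and 1.92, 1.98 and 1.93 in KO, without overlap, while Col1a1 divided by Col1a2 overlapped. The mural markers summed to 591 to 636 CPM in WT and 683 to 790.4 CPM in KO, the contractile fibroblast markers to 678 to 784 and 577 to 713 CPM, and the lymph node markers to 964 to 1085 and 365 to 1249 CPM. The epithelial markers summed to 3.06 to 11.8 CPM and the mesothelial markers to 1.38 to 3.45 CPM over all 6 libraries.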
